A study of Homo sapiens with 12 samples.

Results

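The MAP kinase phosphatases described here are the products of 10 dual-specificity phosphatase genes, DUSP1, DUSP2, DUSP4, DUSP5, DUSP6, DUSP7, DUSP8, DUSP10, DUSP14 and DUSP16. They were taken by name, through their Ensembl identifiers, from a matrix of 32269 genes counted in 12 RNA-seq libraries, and each had 1 entry in all 12. All 10 passed the filter on low counts that 20280 genes passed. DUSP5, with 0 to 7 counts in each AGS library, passed it only through the MKN1 libraries. The libraries came from human gastric cancer lines of genotype WT: AGS, a line of gastric adenocarcinoma epithelial cells, and MKN1, from a gastric adenosquamous carcinoma. Each line was left untreated or treated with cantharidin sodium, a salt derived from the natural PP1 and PP2A inhibitor cantharidin, with 3 libraries in each of the 4 groups. The sources used here give neither dose nor duration, and both groups of a line shared RPMI-1640 culture medium, TRIzol extraction and library preparation.

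MAP kinase phosphatases remove both the phosphothreonine and the phosphotyrosine from the activation loop of ERK, JNK and p38 kinases, and thereby switch them off. Many of their genes are themselves transcribed in response to MAP kinase signalling, so that the family acts as negative feedback. Members differ in where they act and in which kinase they prefer: DUSP1, DUSP2, DUSP4 and DUSP5 are inducible nuclear enzymes, DUSP6 and DUSP7 are cytoplasmic and selective for ERK, DUSP8, DUSP10 and DUSP16 prefer JNK and p38, and DUSP14 is a small atypical enzyme without the kinase-interaction domain.

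The 4 members whose response differed between the lines were DUSP8, DUSP10, DUSP14 and DUSP16, and the sequences just upstream of their start sites are shown first, with that of DUSP1, the classic immediate early member, for comparison. Each stretch is the 250 bases before the gene's first start in RefSeq on GRCh38.p14, written 5′ to 3′ on the gene's own strand. Capitals mark the cAMP response element TGACGTCA, which reads the same on both strands, and the TATA motif TATAAA, searched on both strands. They lie on the minus strand at chr11:1572272-1572521 (DUSP8), chr1:221742090-221742339 (DUSP10), chr12:12562864-12563113 (DUSP16) and chr5:172771196-172771445 (DUSP1), and on the plus strand at chr17:37489641-37489890 (DUSP14).
DUSP8: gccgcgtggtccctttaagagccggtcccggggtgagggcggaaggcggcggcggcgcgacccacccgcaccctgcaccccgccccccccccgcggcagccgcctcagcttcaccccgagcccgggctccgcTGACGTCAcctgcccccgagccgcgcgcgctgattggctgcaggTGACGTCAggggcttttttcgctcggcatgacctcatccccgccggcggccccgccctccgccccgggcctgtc
DUSP10: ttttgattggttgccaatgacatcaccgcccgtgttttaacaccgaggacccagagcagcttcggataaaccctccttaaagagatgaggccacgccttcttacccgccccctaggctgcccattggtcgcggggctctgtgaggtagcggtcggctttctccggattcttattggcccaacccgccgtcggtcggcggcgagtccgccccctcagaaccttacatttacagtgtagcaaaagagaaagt
DUSP14: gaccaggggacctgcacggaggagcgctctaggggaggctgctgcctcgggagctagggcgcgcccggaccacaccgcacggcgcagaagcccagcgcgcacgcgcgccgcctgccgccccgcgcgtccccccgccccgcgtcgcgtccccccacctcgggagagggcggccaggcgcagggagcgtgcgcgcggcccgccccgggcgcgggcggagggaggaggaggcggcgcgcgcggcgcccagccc
DUSP16: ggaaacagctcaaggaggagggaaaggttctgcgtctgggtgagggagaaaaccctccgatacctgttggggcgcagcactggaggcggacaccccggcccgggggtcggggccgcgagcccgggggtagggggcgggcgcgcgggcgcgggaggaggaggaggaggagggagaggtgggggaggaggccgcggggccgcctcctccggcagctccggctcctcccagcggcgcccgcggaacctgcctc
DUSP1: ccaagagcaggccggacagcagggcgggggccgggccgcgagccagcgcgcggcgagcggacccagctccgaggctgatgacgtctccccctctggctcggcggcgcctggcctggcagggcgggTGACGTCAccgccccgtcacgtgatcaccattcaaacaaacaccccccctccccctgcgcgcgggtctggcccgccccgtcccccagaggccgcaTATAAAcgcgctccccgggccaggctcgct

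The cAMP response element occurred at 2 places before DUSP8, with its first base 118 and 74 bases upstream of the start, and at 1 place before DUSP1, 125 bases upstream. Of 35116 such 250-base windows of the RefSeq table, 578 (1.65%) held it. DUSP1 alone among the windows looked at had TATAAA, which 10.7% of all windows held. Neither an AP-1 site (TGANTCA, 6.57% of all windows, no overlap with the other motifs) nor a CArG box (1.16%) was found before any of the 8 members with a window, DUSP1, DUSP2, DUSP6, DUSP7, DUSP8, DUSP10, DUSP14 and DUSP16. The windows of DUSP8, DUSP14, DUSP16 and DUSP1 were rich in G and C, at 76.8%, 82.8%, 74.8% and 74.4% against a median of 58% over all windows, whereas the window of DUSP10 had 56.4%. A further start of DUSP10 in the table, with 55.2% G and C before it, also lacked these motifs. A matching string is a description of these letters, and its absence says nothing about a factor.

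Libraries held 28604966 to 51604215 counts, and levels below are counts scaled to library size (CPM) with TMM factors. Replicate libraries of AGS correlated at 0.9945 to 0.9957 over log2 CPM, and the treated libraries of MKN1 at 0.9845 to 0.9887. In MKN1, untreated replicate 3 stood apart, with correlations of 0.9793 and 0.9813 to the other untreated libraries, which reached 0.9932 with each other. When that library was left out of the fit, 3160 genes passed the threshold in MKN1, and at 59.1% of them the omitted library lay nearer to the treated than to the other untreated libraries. The same share was 5.95% to 36% for the other MKN1 libraries and 5.11% to 6.42% for those of AGS, each over its own set of called genes, a measure chosen after the data were seen. All 6 markers of simple epithelium were at or above 1 CPM in every group. The squamous keratin and p63 list was present in MKN1 (6 of 6 markers) and reached 1 CPM for 1 of 6 in AGS, while gastric markers reached 1 CPM for 4 of 6 in untreated AGS and only 2 of 6 in MKN1. Of 6 blood cell markers, 4 were looked at, and their summed level in AGS was 7.96 to 21.9 CPM in untreated and 0.0839 to 0.129 CPM in treated libraries, with PTPRC and HBA1 at 0 counts after treatment. The corresponding sums were 6.5 to 15.1 and 5.35 to 8.11 CPM in MKN1. Summed fibroblast markers, nearly all of them COL1A1 in AGS, were 19.1 to 24.8 CPM in untreated and 11.2 to 14 CPM in treated AGS, and 94.5 to 148 and 57.6 to 97.1 CPM in MKN1. Endothelial markers summed to 4.6 CPM at most. Some markers moved with treatment. GATA4 was lower in treated AGS (log2 −0.98, adjusted p = 0.00228) and higher in treated MKN1 (0.68, adjusted p = 0.0401), a difference of 1.66 (adjusted p = 0.00115), and KRT19 was lower in AGS (−0.74, adjusted p = 0.0044), a difference of 1.11 from MKN1 (adjusted p = 0.00372). Other gastric markers went against GATA4 in the same edgeR fit. LGALS4 was higher in treated AGS (0.98, adjusted p = 0.000538), with a difference of −1.23 (adjusted p = 0.024). TFF1 had a difference of −3.63 (adjusted p = 0.0389). Both were below 1 CPM in MKN1. The squamous sum, mostly SFN in AGS, was 160 to 198 CPM in untreated and 90.3 to 107 CPM in treated AGS, and 1590 to 3150 and 2240 to 3130 CPM in MKN1. The part of these markers in the results below was not tested.

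Untreated AGS and MKN1 cells expressed the family in different proportions. Per kilobase of exon, DUSP4 was the most abundant member in untreated AGS (74.5 ± 2.16 CPM per kb, SD, n = 3), followed by DUSP16 (32.1 ± 1.68) and DUSP14 (13.9 ± 0.881). In untreated MKN1, DUSP1 led (89.3 ± 15.7 CPM per kb), and DUSP16 and DUSP8 came last at 2.44 ± 0.223 and 1.15 ± 0.238. DUSP1 was thus the leading transcript of one line and, at 9.37 ± 1.28 CPM per kb, the fifth of the other.

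The order within untreated AGS went on with DUSP6 at 9.76 ± 1.54 CPM per kb, whose libraries overlapped those of DUSP1. DUSP10 (6.43 ± 0.144) and DUSP8 (5.61 ± 0.541) followed, each separate from its neighbours. DUSP2 (2.85 ± 0.462) and DUSP7 (2.55 ± 0.0663) overlapped, and DUSP5 was close to the floor at 0.0166 ± 0.0153. In untreated MKN1 the members from DUSP14 (24.1 ± 2.41) through DUSP4 (22.8 ± 9.49), DUSP6 (18 ± 13.2), DUSP7 (14.9 ± 5.48), DUSP10 (13.7 ± 4.42) and DUSP5 (8.59 ± 2.85) to DUSP2 (6.39 ± 2.27) each overlapped the next, so that this stretch of the order lay within the spread between libraries.

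**Figure D1:**
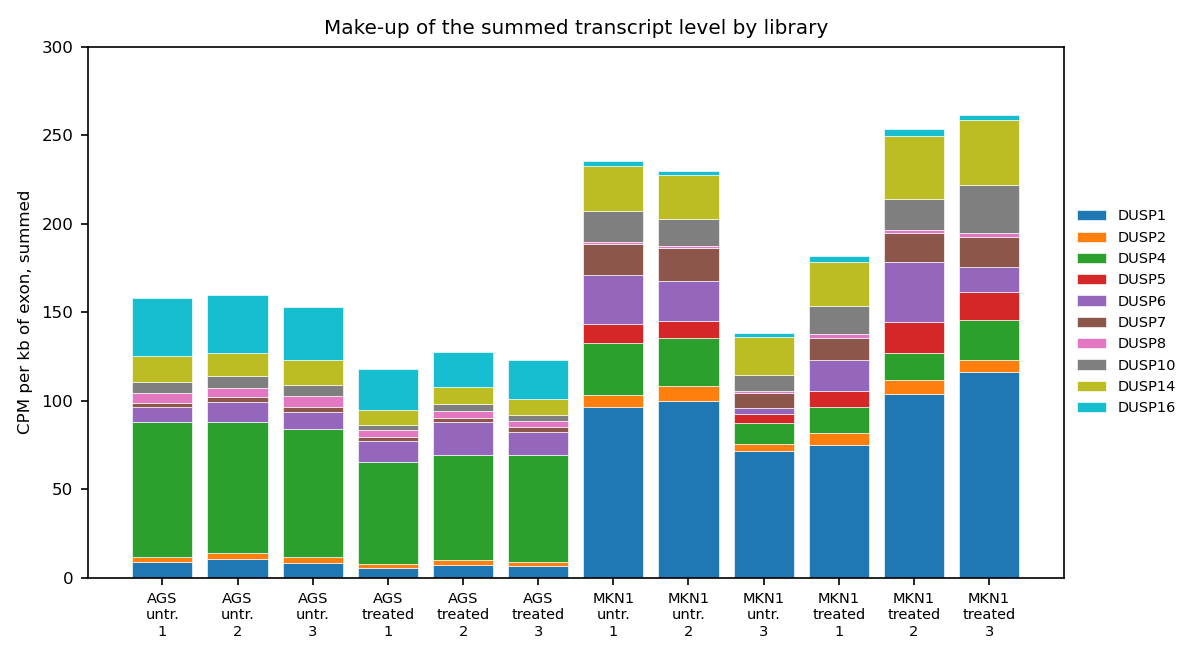
Summed level of the 10 transcripts in each of the 12 libraries, in CPM per kb of exon, stacked by gene. DUSP4 (green) fills 46.6% to 49.4% of every AGS bar and DUSP1 (dark blue) 40.9% to 51.5% of every MKN1 bar. Untreated replicate 3 is the lowest MKN1 bar at 138.

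Summed over the 10 members, the level was 153 to 160 CPM per kb in untreated AGS and 118 to 128 in treated AGS, with no overlap. DUSP4 kept its share in AGS (46.6% to 48.5% untreated, 46.8% to 49.4% treated), DUSP16 held 19.7% to 20.8% before and 15.9% to 19.8% after, and DUSP6 held 5.18% to 7.03% before and 10.4% to 14.4% after. The MKN1 sums were 235, 230 and 138 CPM per kb in untreated replicates 1 to 3 and 182, 253 and 261 in the treated libraries, and these groups overlapped.

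Between the untreated lines 9 of the 10 members differed, 6 being higher in MKN1 and 3 lower (edgeR's quasi-likelihood test with Benjamini-Hochberg adjustment over all tested genes, threshold 0.05). Over all tested genes 34.9% were higher and 31.4% lower, so most genes differ between these lines. Libraries of the lines did not overlap for 9 of 10 members, against 71.4% of all tested genes. Both counts include DUSP5, which passed the filter only through MKN1, the line where it was high. Among the nuclear enzymes, DUSP1 (ENSG00000120129) had 18.4, 21.7 and 16.6 CPM in untreated AGS and 194, 203 and 144 CPM in untreated MKN1. Every MKN1 library was far above every AGS library, a 9.53-fold difference (log2 3.25, SE 0.20, adjusted p = 1.16e-08). DUSP2 (ENSG00000158050), first known from lymphocytes, was also higher in MKN1 (log2 1.17, SE 0.24, adjusted p = 0.000801).

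DUSP5 (ENSG00000138166), which dephosphorylates ERK in the nucleus and holds it there, was higher in MKN1. The untreated AGS libraries held 4, 0 and 2 counts of it, and the untreated MKN1 libraries 821, 700 and 455. Pooled, 1976 against 6 counts gave a 459-fold higher rate in MKN1, with a 95% counting interval of 210 to 1250 that covers counting error only. The pseudogene DUSP5P1 held 34, 26 and 21 counts in untreated and 64, 85 and 68 in treated AGS, more than DUSP5 itself there, and 5 to 33 in the MKN1 libraries. How reads alike in both were assigned is not given, so the low DUSP5 counts of AGS are uncertain. DUSP4 (ENSG00000120875), the nuclear enzyme that dominated AGS, had 556, 541 and 525 CPM there and 213, 196 and 86.4 CPM in MKN1, a 3.27-fold lower level (log2 −1.71, SE 0.27, adjusted p = 7.98e-05).

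Of the cytoplasmic ERK phosphatases, 1 differed. DUSP7 (ENSG00000164086) was 5.82-fold higher in untreated MKN1 (log2 2.54, SE 0.23, adjusted p = 6.09e-07), with 97.9, 105 and 48.4 CPM against 14.1, 14.8 and 14.3 CPM in AGS. DUSP6 (ENSG00000139318), the feedback phosphatase whose transcript is widely read as a marker of ERK output, overlapped between the lines: 131, 105 and 14.6 CPM in MKN1 and 37.9, 52.1 and 45.6 CPM in AGS (log2 0.88, SE 0.55, adjusted p = 0.171). Without MKN1 untreated replicate 3 the DUSP6 difference was 1.39 and passed the threshold (adjusted p = 0.00139). Of the exon bases of DUSP6, 40.5% are shared with an antisense gene, AC024909.2, and reads from the opposite strands cannot be told apart here; that gene had 431 counts over the 12 libraries, 14 to 72 in each.

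The JNK and p38 phosphatases split by line. DUSP16 (ENSG00000111266) had 188, 190 and 173 CPM in untreated AGS and 14.1, 12.7 and 15.2 CPM in untreated MKN1, a 13.1-fold lower level (log2 −3.72, SE 0.13, adjusted p = 7.22e-11). DUSP8 (ENSG00000184545) was 4.86-fold lower in MKN1 (log2 −2.28, SE 0.18, adjusted p = 1.37e-07). In the opposite direction, DUSP10 (ENSG00000143507) was 2.14-fold higher in MKN1 (log2 1.10, SE 0.24, adjusted p = 0.00128), and so was the atypical DUSP14 (ENSG00000276023) by 1.73-fold (log2 0.79, SE 0.15, adjusted p = 0.000319).

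Treatment with cantharidin sodium left the same 9 members different between the lines, in the same directions. In treated cells 6 were higher and 3 lower in MKN1, where all tested genes gave 36.8% and 31.4%. Of the 10, 9 did not overlap against 74% of all genes, and these counts again include DUSP5. The gaps of the 4 members named first moved with treatment: DUSP10 stood 6.07-fold and DUSP14 3.57-fold above AGS in treated MKN1, while DUSP16 and DUSP8 stood only 6.44-fold and 1.68-fold below it. DUSP5 was 297-fold higher in treated MKN1 by pooled counts (3795 against 14 counts, 95% counting interval 177 to 543). DUSP6 again overlapped (log2 0.56, SE 0.54, adjusted p = 0.377). These comparisons share libraries with the treatment effects given next.

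**Figure D2:**
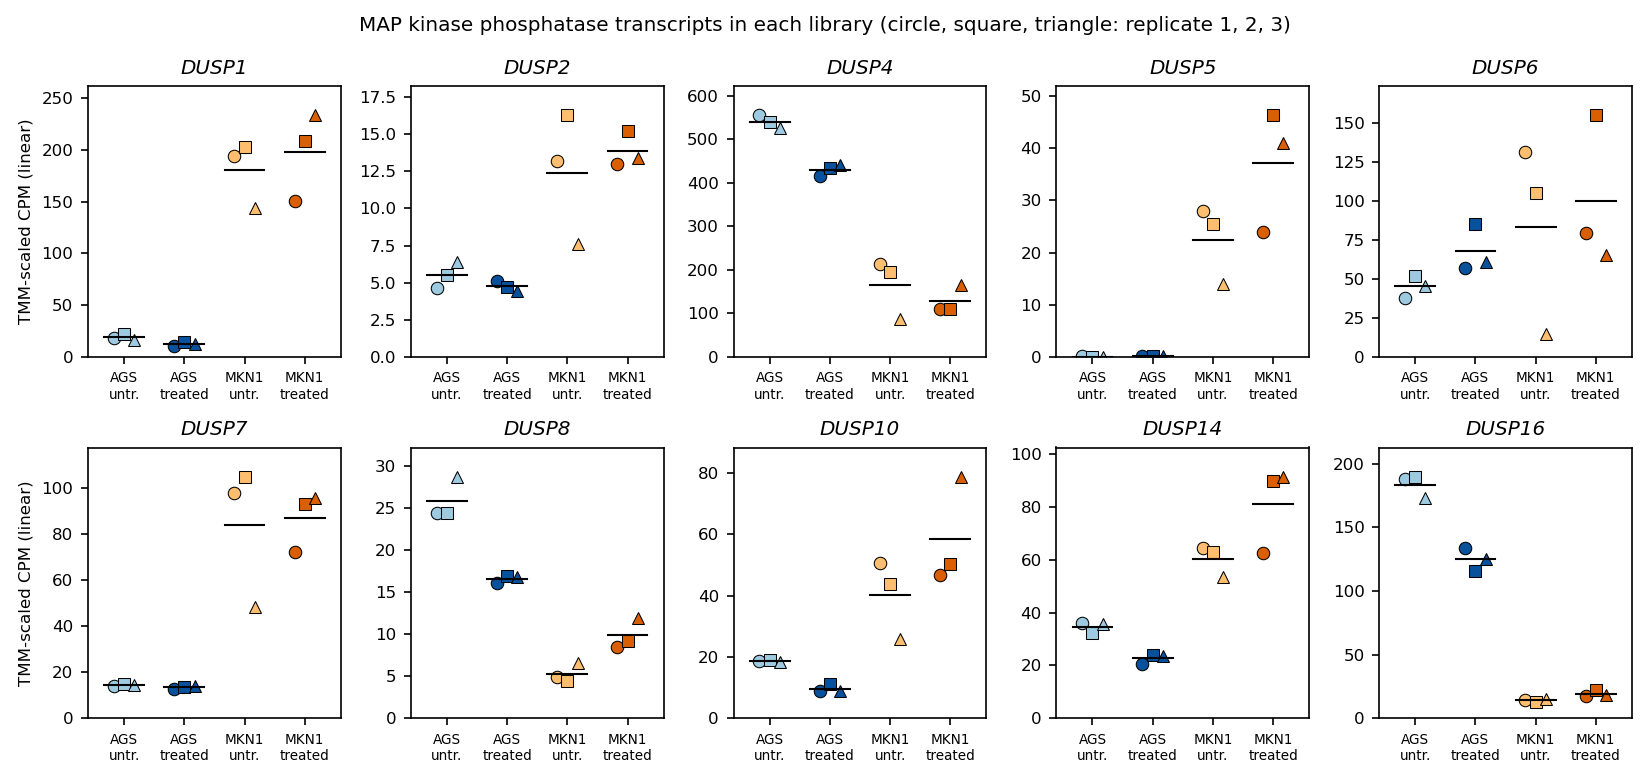
TMM-scaled CPM of each member in each of the 12 libraries on linear axes from 0, with the bar at the mean of the 3 libraries of a group. DUSP8, DUSP10, DUSP14 and DUSP16 lie lower in all treated AGS libraries than in any untreated AGS library. The MKN1 untreated triangle (replicate 3) is the lowest of the untreated MKN1 points in 8 of the 10 panels.

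Treated AGS cells had less of 5 of the 10 transcripts: all 3 phosphatases that prefer JNK and p38 (DUSP8, DUSP10 and DUSP16), the atypical DUSP14, and 1 of the 4 nuclear enzymes, DUSP1. The decreases ran from 1.47-fold to 1.94-fold. Of all tested genes 11.6% were lower and 20.8% differed in either direction. The number of members higher was 0 by edgeR's quasi-likelihood test, 0 at an unadjusted p below 0.05, and 0 by DESeq2 and by limma voom. All 3 treated libraries lay on 1 side of all 3 untreated ones for 8 members, against 52.4% of all tested genes. The median log2 change of the members was −0.44, and that of all tested genes −0.01. In bulk RNA, fewer cells holding a transcript and less of it per cell cannot be told apart.

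DUSP10, a phosphatase of stress kinases known from immune and epithelial cells, had the largest decrease of the 5. It stood at 18.8, 19.1 and 18.3 CPM in untreated and at 8.79, 11.3 and 8.81 CPM in treated AGS. The groups did not overlap, and the level was 1.94-fold lower after treatment (log2 −0.96, SE 0.24, adjusted p = 0.0164). DUSP16, which shuttles between nucleus and cytoplasm and acts mainly on JNK, had 188, 190 and 173 CPM in untreated and 134, 116 and 125 CPM in treated AGS. Its 1.47-fold decrease (log2 −0.56, SE 0.11, adjusted p = 0.00585) had the smallest p of the members in AGS and passed the threshold in all 23 alternative analyses.

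DUSP8, best known from brain and heart, read 24.4, 24.5 and 28.8 CPM before and 16.1, 17 and 16.8 CPM after treatment of AGS. The treated libraries were close together and all below the untreated ones (1.56-fold lower, log2 −0.64, SE 0.17, adjusted p = 0.0193). DUSP14 had 36.2, 32.2 and 35.8 CPM in untreated and 20.6, 24 and 23.7 CPM in treated AGS, again without overlap (1.53-fold lower, log2 −0.61, SE 0.15, adjusted p = 0.0124). The DUSP8 pseudogenes DUSP8P3, DUSP8P4 and DUSP8P5 held 17, 7 and 368 counts over the 12 libraries. DUSP8P5 had 14 to 49 counts in each, against 144, 123 and 214 counts of DUSP8 itself in untreated MKN1, where the gene was lowest, and how reads alike in both were assigned is likewise not given.

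DUSP1, the stress- and growth-factor-induced nuclear enzyme, had 18.4, 21.7 and 16.6 CPM in untreated and 10.8, 14.7 and 12.7 CPM in treated AGS. Its 1.48-fold decrease lay just past the threshold (log2 −0.57, SE 0.19, adjusted p = 0.0476) and missed it in 16 of 23 alternatives. DUSP1 (adjusted p = 0.164) and DUSP8 (log2 −0.37, adjusted p = 0.0783) both lost their calls when trends with GC content and transcript length were removed, which left 3 members called where 20.7% of all genes were. Without AGS treated replicate 1, DUSP16 alone was called.

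The other 3 nuclear enzymes gave no call in AGS. DUSP4 had 415, 434 and 441 CPM after treatment against 556, 541 and 525 before, lower in every library, but the test did not pass (log2 −0.33, SE 0.26, adjusted p = 0.386). That test uses an estimate of spread shared by both lines, and DUSP4 read 213, 196 and 86.4 CPM in untreated MKN1. In AGS, DUSP2 overlapped between groups (4.61, 5.51 and 6.39 CPM before, 5.11, 4.72 and 4.42 after, adjusted p = 0.566). DUSP5 had 4, 0 and 2 counts before and 4, 3 and 7 after, a rate ratio of 2.73 with a 95% counting interval of 0.985 to 8.66, so that no difference was detectable at this depth.

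Of the ERK-selective pair in AGS, DUSP6 read 37.9, 52.1 and 45.6 CPM before treatment and 56.9, 85.3 and 60.7 CPM after it. All treated libraries were above the untreated ones, yet the test did not pass (log2 0.58, SE 0.55, adjusted p = 0.475). The shared estimate of spread also takes in DUSP6 in untreated MKN1, at 131, 105 and 14.6 CPM. In AGS, DUSP7 was at 14.1, 14.8 and 14.3 CPM before and 12.7, 13.4 and 14.1 after (log2 −0.10, SE 0.23, adjusted p = 0.781). With the 6 AGS libraries fitted alone, 7 members were called against 41% of all genes: the 5 above, DUSP4 (−0.33, adjusted p = 0.00152) and, upwards, DUSP6 (0.58, adjusted p = 0.00986).

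**Figure D3:**
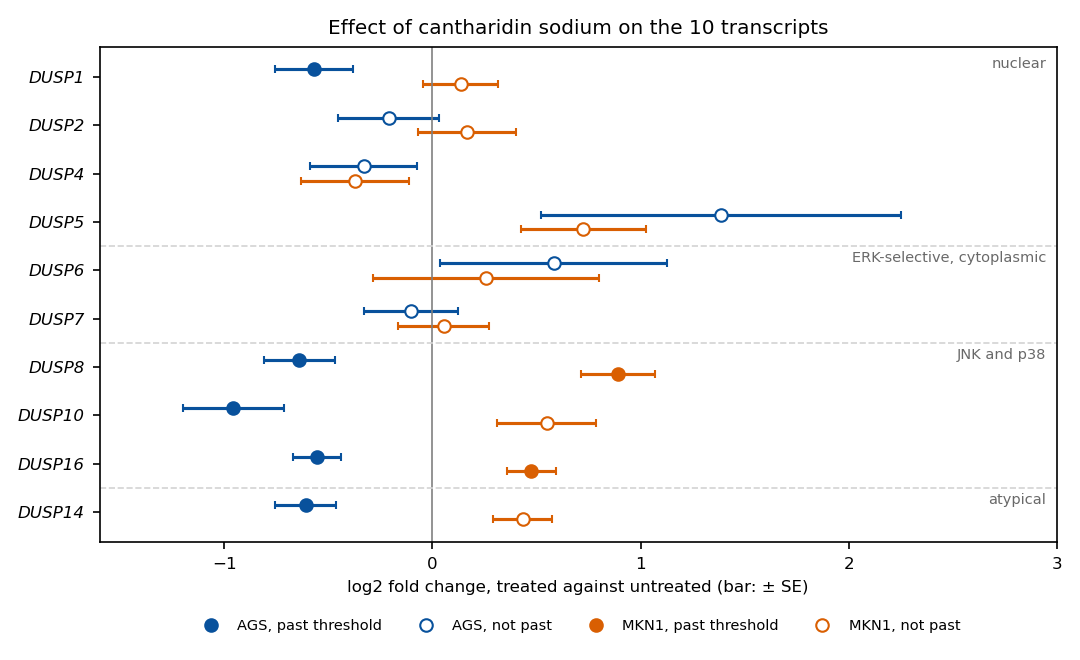
Log2 fold change of each member after treatment in AGS (blue) and MKN1 (orange), with bars of ± 1 SE derived from the statistic of edgeR's test. Filled points are past the adjusted threshold of 0.05. DUSP8, DUSP10, DUSP16 and DUSP14 lie left of 0 in AGS and right of it in MKN1. The AGS value of DUSP5 rests on 6 and 14 counts and depends on the prior count.

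Treated MKN1 cells had more of 2 members, DUSP8 and DUSP16, and less of none by the same test. Over all tested genes 2.8% were higher and 6.7% differed in either direction. The count of lower members was 0 by edgeR's quasi-likelihood test, at an unadjusted p below 0.05, by DESeq2 and by limma voom, and 1 without MKN1 untreated replicate 3. The libraries did not overlap for 2 of the 10 members, DUSP8 and DUSP16, a share close to the 21.4% of all tested genes. DESeq2 called 3 members higher, DUSP14 being the third, where it called 12.1% of all genes in either direction.

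DUSP8 had 4.89, 4.49 and 6.56 CPM in untreated and 8.47, 9.26 and 11.9 CPM in treated MKN1. The treated libraries all lay above the untreated ones, at a 1.86-fold higher level (log2 0.89, SE 0.18, adjusted p = 0.0137). DUSP16 had 14.1, 12.7 and 15.2 CPM before and 17.9, 22.4 and 18 CPM after treatment (1.39-fold higher, log2 0.47, SE 0.12, adjusted p = 0.0346). Both started from a low level in this line, where DUSP8 was the least and DUSP16 the next least abundant member per kilobase. The DUSP16 call was lost in 14 of 23 alternatives and that of DUSP8 in 2. With the 6 MKN1 libraries fitted alone, 0 members were called (DUSP8 adjusted p = 0.143, DUSP16 adjusted p = 0.256), 4 had an unadjusted p below 0.05 as did 15.7% of all genes, and 0.148% of all genes passed the adjusted threshold. Without MKN1 untreated replicate 2 the DUSP8 and DUSP16 calls were lost too (adjusted p = 0.0828 and 0.172).

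The other members did not pass the threshold in MKN1. DUSP14 had 64.4, 63 and 53.3 CPM before and 62.5, 89.8 and 91.5 after (log2 0.43, SE 0.14, adjusted p = 0.0911), and treated replicate 1 lay within the untreated range. It passed in 3 of 23 alternatives: by DESeq2 (adjusted p = 0.048), with scaling by library totals (adjusted p = 0.0494), and without MKN1 treated replicate 1 (log2 0.59, adjusted p = 0.0132). DUSP10 had 50.6, 43.8 and 25.7 CPM before and 46.7, 50.2 and 78.8 after (log2 0.55, SE 0.24, adjusted p = 0.184). DUSP5, well expressed in this line, had 27.9, 25.5 and 13.9 CPM before and 24, 46.4 and 41 after (log2 0.73, SE 0.30, adjusted p = 0.166). In each of these 3 the groups overlapped.

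DUSP1 was at 194, 203 and 144 CPM in untreated and 151, 209 and 234 CPM in treated MKN1 (log2 0.14, SE 0.18, adjusted p = 0.701). DUSP4 had 213, 196 and 86.4 CPM before and 109, 110 and 164 after (log2 −0.37, SE 0.26, adjusted p = 0.421). For DUSP2, DUSP6 and DUSP7 the adjusted p was 0.717, 0.821 and 0.914. DUSP6 showed the widest relative spread of the family, with 131, 105 and 14.6 CPM in untreated and 79.2, 155 and 65.1 CPM in treated libraries.

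Untreated replicate 3 of MKN1 was the lowest of the 3 untreated libraries for 8 of 10 members, where 40.8% of all tested genes had it lowest, and the highest for DUSP8 and DUSP16. DUSP6 was 8.08-fold lower there than in the mean of the other untreated libraries, DUSP4 2.37-fold, DUSP7 2.1-fold and DUSP2 1.94-fold lower. For 3 members (DUSP4, DUSP6 and DUSP7) it held under 50% of the lower of the other untreated libraries, as it did for 5.74% of all tested genes.

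**Figure D4:**
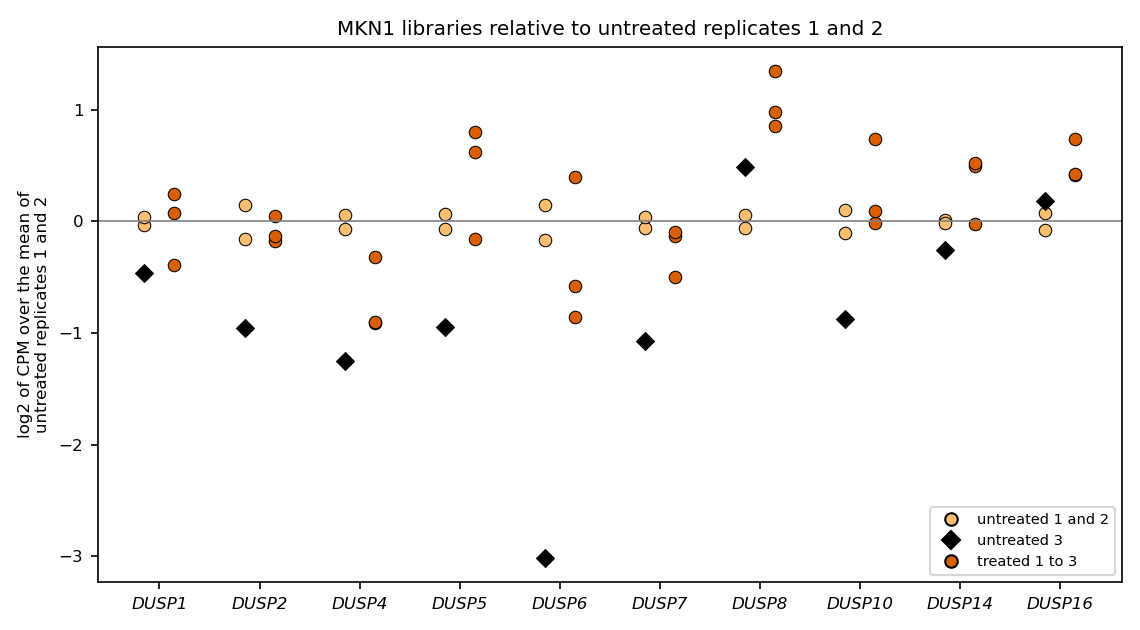
Level of each member in the 6 MKN1 libraries, as log2 of its CPM over the mean of untreated replicates 1 and 2. Untreated replicate 3 (black diamond) lies at −3.01 for DUSP6 and between −0.26 and −1.24 for DUSP14, DUSP1, DUSP10, DUSP5, DUSP2, DUSP7 and DUSP4, and above 0 for DUSP8 and DUSP16. Treated libraries of DUSP8 and DUSP16 are above all untreated ones.

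With that library left out, 3 members were called in MKN1, where 15.1% of all genes tested were called. DUSP8 (log2 1.07, adjusted p = 0.00197) and DUSP16 (0.54, adjusted p = 0.0146) were higher, and DUSP4 was lower (−0.68, adjusted p = 0.0126). The log2 changes of DUSP1, DUSP2, DUSP6 and DUSP7 then turned from positive to −0.005, −0.09, −0.24 and −0.23, none past the threshold.

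The direct test of the difference between the lines' responses called 4 members, each with a more positive effect in MKN1: DUSP8, DUSP10, DUSP14 and DUSP16. Over all tested genes 8.38% differed in this direction and 15.7% in either. DUSP8 differed by 1.53 on the log2 scale (SE 0.25, adjusted p = 0.00183), from −0.64 in AGS to 0.89 in MKN1. DUSP16 differed by 1.03 (SE 0.16, adjusted p = 0.00183), DUSP10 by 1.51 (SE 0.34, adjusted p = 0.0107) and DUSP14 by 1.04 (SE 0.21, adjusted p = 0.00532). These 4 differences passed the threshold in all 22 alternatives in which they could be computed, and lay at 1.71, 1.27, 0.96 and 1.09 for DUSP8, DUSP10, DUSP14 and DUSP16 without MKN1 untreated replicate 3. Fitting each line alone, the alternative that gave each line its own spread, yields no test of the difference. How the 4 calls depend on the shared spread was thus not tested.

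For the remaining 6 members no difference between the responses was shown. The difference of DUSP1 was 0.71 (95% interval 0.14 to 1.27, adjusted p = 0.084), and it passed only without MKN1 treated replicate 1 (0.88, adjusted p = 0.0249). The 95% intervals of the others all held 0: −0.35 to 1.11 for DUSP2, −0.83 to 0.75 for DUSP4, −2.58 to 1.25 for DUSP5, −1.99 to 1.34 for DUSP6 and −0.53 to 0.84 for DUSP7.

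The kinases that these enzymes act on were looked at next. Of 10 ERK, JNK and p38 genes, 1 was lower in AGS and 2 in MKN1, where the shares of all tested genes were 11.6% and 3.9%. MAPK7, which encodes ERK5, was lower in AGS (log2 −0.59, SE 0.15, adjusted p = 0.018). MAPK3, which encodes ERK1, had 42.3, 48.8 and 41.4 CPM in untreated and 26, 22.4 and 19.4 CPM in treated MKN1 (log2 −0.97, SE 0.12, adjusted p = 0.002) and 0.09 in AGS (adjusted p = 0.614), and this difference between the lines passed its own test (−1.06, SE 0.17, adjusted p = 0.00197). MAPK11, a p38 isoform, was lower in MKN1 (−0.77, SE 0.16, adjusted p = 0.016) and at −0.45 in AGS (adjusted p = 0.0777). The median of the list was 0.01 in AGS and −0.13 in MKN1. Without MKN1 untreated replicate 3 the MKN1 count was 2 higher and 2 lower, where 15.1% of all genes were called.

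Among 19 upstream kinases (MAP2K and MAP3K), 3 were higher and 4 lower in AGS, against 9.21% and 11.6% of all tested genes. The largest decrease was that of MAP3K11, an activator of the JNK pathway, with 69.7, 65.2 and 73.6 CPM before and 30.5, 33.2 and 33 CPM after treatment (log2 −1.11, SE 0.12, adjusted p = 0.000235). MAP3K8 was higher (0.60, adjusted p = 0.0044). In MKN1, 0 of the 19 passed by edgeR and by limma voom, 3 were higher by DESeq2, and 6 higher and 2 lower had an unadjusted p below 0.05. Of all genes, DESeq2 called 12.1% in either direction, and 23.4% had an unadjusted p below 0.05 by edgeR. Without MKN1 untreated replicate 3, 3 were higher and 1 lower, where 15.1% of all genes were called. MAP3K8 was at 0.37 in MKN1 (adjusted p = 0.0796) and MAP3K11 at 0.40 (adjusted p = 0.0675), the latter a difference of 1.51 from AGS (SE 0.18, adjusted p = 0.000294). That test of the difference called 2 of the 19 more positive in MKN1, MAP3K11 and MAP2K1 (0.73, adjusted p = 0.0457). It called 1 more negative, MAP3K5 (−1.10, adjusted p = 0.0235), which was higher in AGS (1.01, adjusted p = 0.00522). The shares of all tested genes were 8.38% and 7.3%.

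A further list held transcripts commonly induced by ERK, the kinase that DUSP5, DUSP6 and DUSP7 restrain. Of 21 such genes, 2 were higher and 1 lower in AGS (median 0.06), and 2 were higher in MKN1 (median 0.36). The shares of all tested genes were 9.21% higher and 11.6% lower in AGS and 2.8% higher in MKN1. SPRED1, an inhibitor of the pathway, was higher in both lines (0.64 in AGS, adjusted p = 0.0008, and 0.48 in MKN1, adjusted p = 0.0109), and SPRY1, another inhibitor, in AGS (0.92, adjusted p = 0.00286). FOS was lower in AGS (−0.52, adjusted p = 0.0281) and higher in MKN1 (0.66, adjusted p = 0.023), a difference of 1.18 (SE 0.21, adjusted p = 0.00336).

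MKN1 untreated replicate 3 was also the lowest untreated library for 15 of these 21 genes and held under 50% of the lower other library for 6 (28.6%). The shares of all tested genes were 40.8% and 5.74%. FOSL1, an AP-1 subunit, had 66.5 CPM there against 298 and 306 in the other untreated libraries, and PHLDA1 62.7 against 249 and 210. In the opposite direction SPRED3 had 25.9 CPM against 1.22 and 1.71, near the 35, 42.6 and 31.2 CPM of the treated libraries. FOSL1, PHLDA1 and SPRED3 are named here after their values were seen. Without that library 7 genes of the list were higher and 3 lower in MKN1, where 15.1% of all genes were called.

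Of 14 transcripts tied to stress kinase signalling, 2 were higher and 1 lower in AGS, and 1 was lower in MKN1. The shares of all tested genes were 9.21% higher and 11.6% lower in AGS and 3.9% lower in MKN1. JUND, an AP-1 subunit phosphorylated by JNK, had 119, 106 and 137 CPM in untreated and 54.3, 43.9 and 44.6 CPM in treated AGS (log2 −1.35, SE 0.19, adjusted p = 0.000731). KLF6 was higher in AGS (0.79, adjusted p = 0.0112). GADD45B, a stress-induced activator of p38 signalling, was higher in AGS (0.76, adjusted p = 0.0248) and lower in MKN1 (−0.76, adjusted p = 0.0479), a difference of −1.52 (adjusted p = 0.00526). Its MKN1 value was −0.72 without untreated replicate 3 (adjusted p = 0.0541). ZFP36 did not pass in MKN1 (0.40, adjusted p = 0.0686). Without that library 1 gene of the list was higher in MKN1, ZFP36 (0.50, adjusted p = 0.015), and 2 were lower, ZFP36L1 (−0.89, adjusted p = 0.00251) and PTGS2 (−1.28, adjusted p = 0.0185). In that fit 15.1% of all genes were called.

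Other dual-specificity and MAP kinase phosphatases, 18 of which were tested, gave 2 lower genes in AGS and 0 called in MKN1 by edgeR. In MKN1, 1 was higher by DESeq2, 1 by limma voom, and 4 at an unadjusted p below 0.05. Of all tested genes, 11.6% were lower in AGS, and in MKN1 6.7% were called and 23.4% had an unadjusted p below 0.05. Without MKN1 untreated replicate 3, 3 were higher in MKN1, where 15.1% of all genes were called. PPM1D, which removes phosphate from p38 and p53, was lower in AGS (−0.70, SE 0.14, adjusted p = 0.00547), and so was DUSP3, an atypical phosphatase of ERK and JNK, at 108, 110 and 106 CPM before and 75.2, 78.3 and 77.5 CPM after treatment (−0.48, SE 0.13, adjusted p = 0.0184). In MKN1 DUSP22 was at 0.49 (adjusted p = 0.0935) and DUSP3 at 0.36 (adjusted p = 0.104). The test of the difference called 4 of the 18, all more positive in MKN1: DUSP3 (0.85), PPM1D (0.80), PTPRR (0.95) and DUSP22 (0.74), with adjusted p from 0.00764 to 0.0453. Over all tested genes this test called 8.38% in that direction and 15.7% in either.

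The genes whose pattern most resembled that of DUSP16 and DUSP8 were sought among 11402 genes, over 12 libraries of log2 CPM centred within each line. For DUSP16 these were BTG2, an antiproliferative p53 target (Pearson 0.974, Spearman 0.993), ZNF232 (0.956 and 0.965) and SLC44A3 (0.95 and 0.902). For DUSP8 they were the long noncoding RNA PRECSIT (0.973 and 0.93), HOMER2 (0.966 and 0.993) and UBE2E3 (0.965 and 0.93). All 6 had negative fitted changes in AGS and positive ones in MKN1, for example −0.79 and 0.56 for BTG2. These signs follow from the choice, since DUSP16 and DUSP8 were themselves lower in treated AGS and higher in treated MKN1. The libraries share their groups, and the correlations are descriptions without a test.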

How the data were processed

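RNA-seq was done on 12 libraries of AGS and MKN1 cells. Per the labels' protocols, fragmented mRNA was made into libraries with a NEBNext Ultra kit, which does not mark the strand. The submitters' processing notes name HISAT2 2.0.4 and the build hg38/GRCh38; counting tool, annotation and strand setting: not given in the sources used here. What the authors deposited are raw, whole-number counts for each gene. Libraries of a group are called biological replicates, with no word on separate cultures, so p-values measure the spread between these libraries only.

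Symbols were matched for 32069 of 32269 identifiers, and exon lengths came from GENCODE, on GRCh38. Genes were filtered with filterByExpr (20280 kept), libraries scaled with TMM, and all 4 groups fitted together with edgeR 4.0.16 (R 4.3.3) by quasi-likelihood F tests (residual df 8, prior df 4.91, biological CV 19.7%). The estimate of a gene's spread was shared by both lines, except where a line was fitted alone. Adjustment was by Benjamini-Hochberg over all tested genes, threshold 0.05. The procedure was tested on simulated data. Alternatives were other scalings, DESeq2 1.42.0, limma 3.58.1 (voom), other filters, removal of GC and length trends, a replicate block, each line fitted alone, and each library omitted in turn. Depth of 28604966 to 51604215 counts puts the floor of 3 counts at 0.0581 to 0.105 CPM. Floors and the counting intervals of DUSP5 cover counting error only. The SE given is the absolute log2 change over the square root of F in edgeR's test, which includes the spread between libraries. Intervals of the differences between the lines' responses rest on that SE.

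All 10 members were named whatever their values. Of each pathway list, the 2 genes of smallest adjusted p in each line (mean of at least 1 CPM) were named, with every called ERK, JNK or p38 kinase, and others where stated or to give a count its names. Like patterns were the 3 highest Pearson correlations among genes of at least 5 CPM. The members and lists were chosen with earlier results of these data known.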

Additional observations from a re-analysis of the deposited data

Results flagged for a closer look

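The response to cantharidin sodium of 4 members differed between AGS and MKN1 by the test of the difference itself (edgeR's quasi-likelihood test on the interaction of line and treatment, Benjamini-Hochberg adjustment). The log2 effect in MKN1 exceeded that in AGS by 1.53 for DUSP8 (adjusted p = 0.00183; −0.64 in AGS and 0.89 in MKN1). For DUSP10 it did so by 1.51 (adjusted p = 0.0107), from −0.96 to 0.55. DUSP14 differed by 1.04 (adjusted p = 0.00532), from −0.61 to 0.43, and DUSP16 by 1.03 (adjusted p = 0.00183), from −0.56 to 0.47. In AGS all 3 treated libraries of each of the 4 lay below all untreated ones, whereas in MKN1 the libraries separated for DUSP8 and DUSP16 and overlapped for DUSP10 and DUSP14. Over all tested genes, 8.38% had a more positive effect in MKN1 and 15.7% differed in either direction, and libraries did not overlap for 52.4% of genes in AGS and 21.4% in MKN1.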

How the results depend on the processing

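Over 23 alternatives, 1046 member values kept their direction and their side of the threshold, 42 lost a call, 8 gained one and 24 changed sign, none of the last past the threshold. The members called in AGS (5) were 3 with GC and length trends removed, 2 with that and a replicate block, and 1 to 5 with a library left out (1 without AGS treated replicate 1, 2 without treated replicate 3, 3 without treated replicate 2 or untreated replicate 3). Those in MKN1 (2) were 3 by DESeq2 and with library totals, 1 with voom, no filter, the replicate block or the block with GC and length trends removed, 0 with the line alone, and 0 to 3 with a library left out (0 without MKN1 untreated replicate 2, 3 without untreated replicate 3 or treated replicate 1, and 1 without any single AGS library, MKN1 untreated replicate 1 or treated replicate 2). The 4 calls for the difference, and 9 in each comparison of the lines, stayed under the replicate block, which gave 4 calls in AGS. Whether replicate numbers mark a shared culture or day is not said. Deviations of same-numbered libraries correlated at 0.03, 0.08 and −0.05 in AGS and 0.13, −0.05 and 0.22 in MKN1. Those of differently numbered libraries ran from −0.127 to 0.102 in AGS and from −0.263 to 0.163 in MKN1.

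Signs changed only where neither the main nor the alternative value passed the threshold. The ranges of DUSP6 given below were wide. In AGS, with GC and length trends removed, DUSP2 and DUSP7 were at 0.10 and 0.13 (0.11 and 0.13 with the block). The difference between lines was 0.031 (library totals), 0.044 (voom) and 0.018 (block) for DUSP4, 0.10 (voom), 0.064 (block) and 0.079 (block, GC and length) for DUSP6, and −0.019 (GC and length) for DUSP7. With a library left out it ran from −0.35 to 0.18 (DUSP4), −0.83 to 0.16 (DUSP6) and −0.12 to 0.35 (DUSP7), and the MKN1 effects from −0.005 to 0.30 (DUSP1), −0.089 to 0.41 (DUSP2), −0.24 to 0.74 (DUSP6) and −0.23 to 0.25 (DUSP7). Why these values moved was not tested.

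All-gene counts behind the background shares moved by over 1.5 times as well: in AGS from 4214 to 8318 with the line alone and to 2514, 2051, 2483, 2162 and 2465 without untreated replicate 1 or 3 or treated replicate 1, 2 or 3. In MKN1 it moved from 1358 to 30 with the line alone, 809 with no filter and 2459 by DESeq2. It was 756, 336, 3160 and 624 without MKN1 untreated replicate 1, 2 or 3 or treated replicate 2, and 832 to 892 without AGS untreated replicate 1 or 2 or treated replicate 1 or 3. For the difference it moved from 3180 to 2098 without AGS untreated replicate 1. Library totals turned the MKN1 split from 567 higher and 791 lower to 754 and 543.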
